A study of Mus musculus with 14 samples.

Results

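The genes described here are the long noncoding RNAs that skeletal muscle of these mice expressed. They were selected on their biotype in the deposited annotation: lincRNA, antisense or bidirectional promoter lncRNA. They also had a mean of at least 1 FPKM over the 14 libraries. FPKM is a count scaled by gene length and by a total per library, which was not a constant share of the summed counts. H19, Meg3, Rian and Mirg were left out by name. The selection gave 298 members of the 54532 genes in the table, and of 8550 genes with these biotypes. Of the members, 148 were lincRNAs, 134 antisense and 16 bidirectional promoter lncRNAs. Their levels chose them, so every level below is a description without a test. The mean over all libraries does not look at the groups, but a gene can reach it through high values in some of them: 48 members had a group mean under 1 FPKM. Differences between groups were tested over all genes. All but 1 of the 298, Gm38079, passed the filter on low counts, so that 297 were tested.

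Long noncoding RNAs carry no long open reading frame. Some stay in the nucleus and build nuclear bodies or act on the gene beside them, others leave for the cytoplasm and bind proteins or microRNAs, and others are spliced hosts that release a snoRNA or a microRNA. In muscle, several lie beside genes of the contractile apparatus or give rise to the microRNAs of myogenesis.

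The study asked what endothelial c-Myc does for metabolism under a fat-rich diet. All mice were FVB/N males. EC-Myc OE animals (OE) carried Tet-O-Myc, a human c-Myc transgene on the Y chromosome, together with Cdh5-tTA, which drives it in endothelial cells once doxycycline is withdrawn, here at 4 to 6 weeks of age. Control littermates (CT) carried Tet-O-Myc but lacked tTA. Both then received a control diet (CTD) or a western diet (WD) for 20 weeks according to the labels, and the study's text is not uniform on the time before sequencing. RNA from soleus and gastrocnemius was sequenced after poly-T selection, and the labels do not say which muscle a library came from. There were 3 CT-CTD, 3 CT-WD, 4 OE-CTD and 4 OE-WD libraries. Sizes of the sequenced groups follow diet in the study and genotype in the labels. If the names CT-WD and OE-CTD were exchanged, the 4 simple comparisons would trade places and the interaction would keep its values.

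Summed counts per library were 24807368, 24101226 and 25054855 in CT-CTD, 26518734, 21833839 and 23814408 in CT-WD, 25486678, 28519159, 22966288 and 22083340 in OE-CTD, then 25281275, 27115249, 22033140 and 27698046 in OE-WD. Members took 0.422, 0.559 and 0.534% of these counts in CT-CTD, 0.448, 0.576 and 0.646% in CT-WD, 0.543, 0.492, 0.511 and 0.396% in OE-CTD. For OE-WD the shares were 0.499, 0.451, 0.517 and 0.385%. The lowest shares belonged to OE-CTD 4 and OE-WD 4, and the ranges of the 4 groups overlapped. These 2 libraries stood apart in other ways. Transcripts of the mitochondrial genome made up 14.9% of counts in OE-CTD 4 and 14.5% in OE-WD 4, against 9.66% to 12.8% in the other 12. The total by which FPKM scale was 79.9% of summed counts in OE-CTD 4 and 80.8% in OE-WD 4, against 86.1% to 98.0% elsewhere. The same share of counts thus gives a higher FPKM in these 2 libraries. Chi-square per degree of freedom, taken for each pair of replicates, was 8.06 to 11.0 among OE-CTD libraries without OE-CTD 4 and 39.3 to 45.3 against it, and in OE-WD it was 8.82 to 15.9 without OE-WD 4 and 41.0 to 44.8 against it. Values in CT were 17.8 to 28.4 in CT-CTD and 31.8 to 53.4 in CT-WD. Numbers in the library names follow the OE groups: 3 OE-CTD libraries share a number, another stands in OE-CTD 4, and the 4 OE-WD libraries share yet another, so that what these numbers stand for cannot be told apart from group. Among controls they run across the groups, CT-CTD 1 and CT-WD 1 having neighbouring numbers far from those of the other 4 libraries. Nothing in the labels states that each library is a separate animal, and the p-values measure only the spread between these libraries. In bulk tissue, fewer cells of a type and less RNA per cell cannot be told apart.

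On the FPKM scale the members were low. Their mean FPKM had a median of 2.13, against 5.35 for the 9582 of 22046 protein-coding genes at the same threshold. Between 1 and 2 FPKM lay 147 members, between 2 and 5 another 93, between 5 and 10 another 26, between 10 and 50 another 24, and above 50 the last 8. Just inside the threshold were A830052D11Rik, Gm16973 at 1.01 and Gm4665 at 1.01 FPKM; just outside were Gm15265 at 0.998, Gm34590 at 0.996 and 2010015M23Rik at 0.995. Members were also short, with a median gene length of 1064 bases against 4250.5 for those protein-coding genes. RefSeq lists 171 of them as lncRNA and has no match by name for 116. It lists 8 as protein coding, among them Lsmem2, 1810058I24Rik, known as the source of a mitochondrial micropeptide, and Ndufb1-ps, which it names Ndufb1, a subunit of respiratory complex I.

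A few RNAs made up much of the total: the 10 most abundant held 40.2% of the summed FPKM of all members. Gm10076 came first with a mean of 120.4 FPKM and Neat1 second with 111. Prr33, which lies across from the fast troponin T gene Tnnt3, had 97.5 FPKM and Gm12319, whose start is 709 bases from that of the muscle enolase gene Eno3, had 80.7. Next came 2900097C17Rik at 66.6, 1700020I14Rik at 59.0, 2310040G24Rik at 54.3 and Gm44386 at 52.4 FPKM. Malat1 at 41.8, 2310065F04Rik at 41.6, Gm11716 at 36.6, Lsmem2 at 35.5, Ndufb1-ps at 34.5, 0610009L18Rik at 22.7 and 1810058I24Rik at 19.04 FPKM completed the 15 most abundant. Ranked instead by TMM-scaled CPM per kb, the same 15 were at the top, and 276 of the 298 reached a value of 1.

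**Figure D1:**
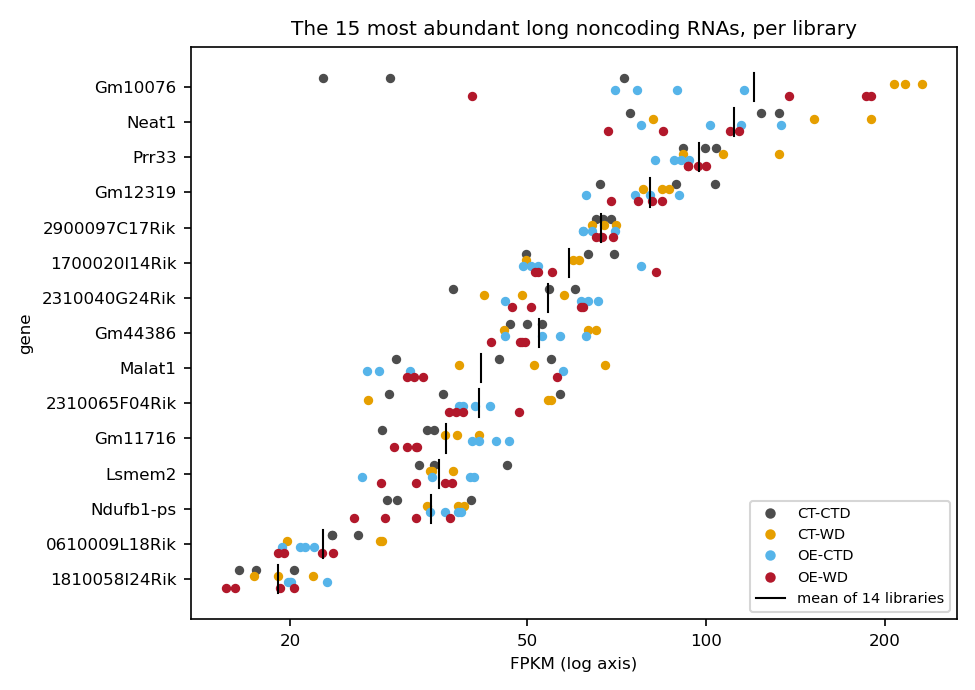
FPKM (log axis) of the 15 most abundant long noncoding RNAs, 1 point per library coloured by group, with a black line at the mean of the 14 libraries. Gm10076 spreads from 22.7 to 231 FPKM, whereas 2900097C17Rik keeps within 62.2 and 70.7.

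Neat1, the scaffold of paraspeckles, measured 74.6, 133 and 124 FPKM in CT-CTD, 81.5, 152 and 189.7 in CT-WD and 134, 102, 115 and 77.6 in OE-CTD, then 114, 84.6, 109.9 and 68.4 in OE-WD. The highest value was CT-WD 3 and the lowest OE-WD 4, and all 4 groups overlapped. Of all counts on members, Neat1 took 29.9% to 52.5%. Malat1, a nuclear RNA of splicing speckles whose 3' end RNase P cuts, measured 30.1, 44.9 and 54.9 FPKM in CT-CTD, 38.4, 51.4 and 67.8 in CT-WD and 26.9, 28.2, 31.8 and 57.4 in OE-CTD, then 33.4, 31.5, 32.2 and 56.2 in OE-WD. Within each OE group 1 library was far above the rest, OE-CTD 4 at 57.4 and OE-WD 4 at 56.2, the same libraries with the most mitochondrial RNA; the part of RNA quality in this was not tested. The log2 fold change of Neat1 was largest in OE-WD against CT-WD, at -0.58 (SE 0.27, adjusted p = 0.287), and that of Malat1 was -0.46 (SE 0.28, adjusted p = 0.429). Neither passed the test in any comparison. Both were measured after poly-T selection, so the values describe only the forms of these RNAs that this selection took. Of 12 paraspeckle proteins, 12 tested of 13 proteins of RNase P and of Malat1 end processing, 14 of nonsense-mediated decay and 17 of the nuclear exosome, none was called at the adjusted level in the 5 comparisons by edgeR, nor at the unadjusted level defined below. Of 8 core proteins of snoRNPs none was called at the adjusted level, and 1 was lower at the unadjusted level in the interaction.

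The Norad gene, 2900097C17Rik in the table, makes an RNA that binds Pumilio proteins, and it measured 65.3, 69.2 and 67.1 FPKM in CT-CTD, 64.5, 70.7 and 67.5 in CT-WD and 64.3, 62.2, 62.2 and 70.4 in OE-CTD, then 66.8, 65.4, 66.6 and 69.9 in OE-WD. Lowest and highest differed little, all groups overlapped, and its median within-group SD of log2 CPM, 0.0440, was the smallest of the 297 members, whose median was 0.303; over all 15458 genes tested the median was 0.203. Its transcript holds 11 copies of TGTANATA, the Pumilio element, in 4915 bases, or 2.24 per kb. Of the 297 members with a GENCODE transcript 257 hold none and 32 hold 1, and 7 of 54409 genes hold at least as many as 2900097C17Rik. Gm7292 shares at least 95% of bases with it over its whole transcript, so reads of these genes are not surely told apart.

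Cyrano, listed as 1700020I14Rik, is known for a long pairing with miR-7. It measured 49.9, 70.0 and 63.3 FPKM in CT-CTD, 49.9, 61.2 and 59.7 in CT-WD and 49.3, 52.3, 50.9 and 77.7 in OE-CTD, then 55.1, 52.1, 51.7 and 82.4 in OE-WD. OE-CTD 4 and OE-WD 4 were again the highest, and the other OE libraries lay between 49.3 and 55.1. No comparison called it, with log2 fold changes from -0.10 to 0.08 in the 4 simple comparisons. Below are its miR-7 site at chr2:119602137-119602164 on the plus strand of GRCm38, capitals marking bases complementary to the microRNA, and mature miR-7a with its seed in capitals.
1700020I14Rik site: ACAACAAAATCACcaatGTCTTCCAttt
mmu-miR-7a-5p: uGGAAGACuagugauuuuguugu
In the site 21 of 28 bases are in capitals. Tug1 measured 2.15 to 3.04 FPKM over the 14 libraries and was not called either.

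Among 21 snoRNA host genes found in the table, 5 were members: Epb41l4aos at a mean of 10.5, Snhg6 at 3.42, Snhg20 at 2.31, Snhg18 at 1.56 and Snhg12 at 1.14 FPKM. Most of the others, Gas5 among them, carry the biotype processed transcript and fall outside the selection. None of the 5 was called in any comparison. Their log2 fold changes ran from -0.18 to 0.05 in CT-WD against CT-CTD, -0.44 to -0.11 in OE-WD against OE-CTD, -0.42 to -0.08 in OE-WD against CT-WD and -0.23 to 0.34 in OE-CTD against CT-CTD. Mir133a-1hg, the host of miR-1a-2 and miR-133a-1, microRNAs of heart and skeletal muscle, measured 15.01, 16.7 and 20.8 FPKM in CT-CTD, 13.7, 12.6 and 19.1 in CT-WD and 20.8, 12.7, 15.1 and 14.3 in OE-CTD, then 15.03, 13.6, 11.0 and 13.5 in OE-WD. Its highest values were OE-CTD 1 and CT-CTD 3, all groups overlapped, and no comparison called it. By position 9 members hold 13 microRNA genes and 5 hold snoRNA genes. Those 5 include 2310014F06Rik but not Snhg20, which by position holds only the microRNA gene Mir6516. Gm28653 holds Mir206 and Mir133b, microRNAs of skeletal muscle, and measured 1.35, 1.71 and 1.27 FPKM in CT-CTD, 0.113, 0.936 and 1.92 in CT-WD and 0.330, 0.504, 1.69 and 2.58 in OE-CTD, then 0.229, 0.386, 0.434 and 0.684 in OE-WD. It had the largest within-group SD of log2 CPM of any member, 0.989, with CT-WD 1 at 0.113 and CT-WD 3 at 1.92. 6720427I07Rik, at a mean of 1.51 FPKM, holds 3 let-7 genes whose main products share the seed GAGGUAG. Mature sequences from these hosts are given 5′ to 3′ with the seed, bases 2 to 8, in capitals, since poly-T selected libraries measure the host and not the microRNA.
mmu-miR-206-3p: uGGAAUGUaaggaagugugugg
mmu-miR-133b-3p: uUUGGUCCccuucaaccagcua
mmu-let-7a-5p: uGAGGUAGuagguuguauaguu
mmu-let-7d-5p: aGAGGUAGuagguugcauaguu
mmu-let-7f-5p: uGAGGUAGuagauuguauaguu
mmu-miR-30c-5p, held by Gm27028: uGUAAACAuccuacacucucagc
mmu-miR-101a-3p, held by E130102H24Rik: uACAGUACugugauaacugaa
Of these, only the let-7 products share a seed. 2900076A07Rik, host of Mir1839, had the second smallest spread, between 17.4 and 21.2 FPKM, and Gm16536 and Prr33 came next, between 4.13 and 5.61 and between 82.2 and 133 FPKM.

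Members known to act on a neighbour were few. Airn, the imprinted antisense RNA of Igf2r, measured 1.64, 1.64 and 1.58 FPKM in CT-CTD, 1.29, 1.70 and 2.03 in CT-WD and 0.962, 1.11, 1.47 and 1.18 in OE-CTD, then 1.297, 1.13, 1.22 and 1.29 in OE-WD. Every OE-CTD value was below the CT-CTD values and CT-WD 1 alone lay within the OE-WD range, but neither difference passed the test. The log2 fold change was -0.46 (SE 0.17, adjusted p = 0.190) in OE-CTD against CT-CTD and -0.44 (SE 0.17, adjusted p = 0.213) in OE-WD against CT-WD. Bvht, known from cardiac commitment, lay between 8.24 in OE-WD 4 and 14.9 FPKM in CT-WD 3. 2310065F04Rik, a lincRNA of the fast myosin heavy chain cluster, measured 29.4, 56.9 and 36.1 FPKM in CT-CTD, 27.0, 54.9 and 54.3 in CT-WD and 39.0, 40.9, 38.5 and 43.3 in OE-CTD, then 48.4, 37.0, 39.0 and 38.0 in OE-WD. CT-CTD 2, CT-WD 2 and CT-WD 3 were high, CT-WD 1 and CT-CTD 1 were low, and the 8 OE libraries lay between 37.0 and 48.4. None of the 4 genes of the X-inactivation centre and none of 9 HOX cluster RNAs looked for was a member.

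Many members lie against a coding gene. In GENCODE M21, 120 of 297 have an exon over an exon of a gene on the other strand, 101 of them over a protein-coding gene, and 84 start within 1000 bases of a protein-coding start on the other strand, 52 of these divergently. The strand setting of the counting is not stated, so reads of overlapping genes may be shared. For 37 divergent pairs without exon overlap, log2 fold changes of member and neighbour correlated across pairs with r = 0.591 in OE-CTD against CT-CTD, 0.519 in OE-WD against OE-CTD, 0.194 in OE-WD against CT-WD and -0.019 in CT-WD against CT-CTD. For 97 pairs with exon overlap the values were 0.231, -0.03, 0.189 and 0.186 in the same order. Pairs are not replicates and share their libraries, and no test was made. 0610009L18Rik starts 136 bases from the gamma actin gene Actg1 and was not called with it. Actg1 measured 46.7, 52.9 and 44.8 FPKM in CT-CTD against 69.6, 82.5, 84.0 and 67.6 in OE-CTD, with no overlap and a log2 fold change of 0.66 (SE 0.14, adjusted p = 0.0232). 0610009L18Rik measured 23.5, 26.0 and 23.5 FPKM in CT-CTD against 21.2, 21.9, 20.8 and 19.4 in OE-CTD, with -0.22 (SE 0.13, adjusted p = 0.434).

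RefSeq gives 189 promoters for 152 of the members, each running from 250 bases before to 50 after the start. Both strands were searched for 5 motifs. CACGTG, the E-box bound by Myc among others, was in 7.94% of member promoters, 7.15% of all 32851 promoters and 10.6% of 9724 promoters of protein-coding genes at the same FPKM threshold. The shares for CAGCTG, the E-box of myogenic factors, were 12.2%, 16.3% and 15.4%. For GTAAACA, the forkhead motif, they were 5.82%, 3.65% and 2.46%, and for TATAAA 11.1%, 13.6% and 7.11%. The MEF2 motif, which can hold TATAAA-like letters, was in 9.52%, 3.19% and 1.91%. Its 18 promoters belong to 17 members, with Malat1, Lsmem2, 1810058I24Rik, Gm15179 and Atcayos the most abundant. A match is a description of letters and was not tied to binding or to any fold change. Promoters of Malat1, the most abundant, and of 2310075C17Rik, which a comparison below names, are given 5′ to 3′ from GRCm38.p6 with the matches in capitals. They lie at chr19:5802623-5802922 on the minus strand and chr9:112227206-112227505 on the plus strand.
Malat1: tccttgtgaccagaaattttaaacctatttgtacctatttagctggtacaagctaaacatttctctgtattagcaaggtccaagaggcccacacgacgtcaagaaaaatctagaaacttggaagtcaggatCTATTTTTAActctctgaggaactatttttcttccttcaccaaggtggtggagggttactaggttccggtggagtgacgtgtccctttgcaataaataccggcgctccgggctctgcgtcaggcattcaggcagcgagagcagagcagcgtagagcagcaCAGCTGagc
2310075C17Rik: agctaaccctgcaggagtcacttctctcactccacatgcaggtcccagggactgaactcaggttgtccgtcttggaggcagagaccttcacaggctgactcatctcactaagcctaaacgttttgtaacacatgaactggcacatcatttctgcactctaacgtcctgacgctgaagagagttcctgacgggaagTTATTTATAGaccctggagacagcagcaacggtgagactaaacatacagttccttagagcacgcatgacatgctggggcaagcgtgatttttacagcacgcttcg
Malat1 holds CAGCTG and MEF2, and 2310075C17Rik holds a MEF2 match that contains TATAAA read on the other strand.

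In the edgeR fit of all 14 libraries, members passed the adjusted test only for c-Myc on the control diet. A gene was called at the adjusted level when its edgeR p, adjusted over all 15458 genes tested, was under 0.05 and its fold above 1.5, and at the unadjusted level by the same rule with the unadjusted p. In the interaction p alone decided, for members, lists and all genes. Shares of all genes are from this fit alone, so counts of members under other fits have no such share beside them. In OE-CTD against CT-CTD, 4 of 297 members were called at the adjusted level, against 1.91% of all genes. 3 fell and 1 rose. Unadjusted, 24 members were called, against 7.12% of all genes; 6 were higher, against 4.94%, and 18 lower, against 2.18%. The median log2 fold change was -0.07 over members and -0.00 over all genes tested. The member median was -0.02 without OE-CTD 4, -0.03 without CT-CTD 2 and -0.03 with OE-CTD 4 and OE-WD 4 both left out. Among the 249 tested members whose group means all reached 1 FPKM, 3 were called at the adjusted level and 13 unadjusted, 5 higher and 8 lower, with a median of -0.05.

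Gm37422, an antisense RNA (ENSMUSG00000104435, chr1:189879935-189884652 of mm10), measured 1.98, 3.43 and 3.02 FPKM in CT-CTD, 2.04, 2.75 and 2.52 in CT-WD and 1.40, 1.31, 1.28 and 1.40 in OE-CTD, then 1.35, 1.42, 1.83 and 1.62 in OE-WD. Every OE-CTD library was below every CT-CTD library. The log2 fold change was -1.06 (SE 0.17, adjusted p = 0.00627), from 2.81 ± 0.751 FPKM (SD, n = 3) to 1.35 ± 0.0602 FPKM (SD, n = 4), and it was called in all 18 alternatives, with adjusted p from 4.03e-06 to 0.0375. Its exons share 814 bases with Smyd2, a lysine methyltransferase gene on the other strand, which had -0.33 (SE 0.10, adjusted p = 0.105) and was not called. 8430426J06Rik, a lincRNA (ENSMUSG00000115970, chr15:81242657-81312866), measured 1.71, 1.94 and 2.37 FPKM in CT-CTD, 1.69, 1.301 and 1.51 in CT-WD and 0.876, 0.565, 0.733 and 0.165 in OE-CTD, then 0.867, 0.738, 0.487 and 0.391 in OE-WD. All OE values were below all CT values and under 1 FPKM, so that it is a member through its CT values. It fell by 1.74 on the log2 scale (SE 0.37, adjusted p = 0.0238) in OE-CTD, from 2.004 ± 0.337 FPKM (SD, n = 3) to 0.585 ± 0.307 FPKM (SD, n = 4). The adjusted p was 0.0763 without CT-CTD 2, 0.117 without CT-CTD 3, 0.0756 without OE-CTD 2 and 0.0529 without OE-CTD 3, within 1.90e-04 to 0.117 over the alternatives.

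Gm49417 (ENSMUSG00000115186, chr14:70205324-70255287) runs across Ppp3cc, a catalytic subunit gene of calcineurin, and Sorbs3 on the other strand. It measured 4.92, 6.14 and 5.11 FPKM in CT-CTD, 4.22, 6.58 and 6.39 in CT-WD and 3.52, 2.44, 3.22 and 3.65 in OE-CTD, then 5.02, 3.73, 4.35 and 4.22 in OE-WD. OE-CTD and CT-CTD did not overlap, and OE-WD lay above OE-CTD with its highest value inside the CT-CTD range. Its log2 fold change was -0.75 (SE 0.17, adjusted p = 0.0317), from 5.39 ± 0.657 FPKM (SD, n = 3) to 3.21 ± 0.542 FPKM (SD, n = 4), with Ppp3cc at -0.18 and Sorbs3 at -0.37, neither called. Without 1 library the adjusted p was 0.145 (CT-CTD 2), 0.10 (CT-CTD 3), 0.0529 (OE-CTD 1), 0.0960 (OE-CTD 2) and 0.0795 (OE-CTD 3), within 0.00308 to 0.145 over the alternatives. Foxo6os (ENSMUSG00000084929, chr4:120291350-120303892), named for the forkhead gene Foxo6, was the one that rose. It measured 1.29, 2.53 and 1.34 FPKM in CT-CTD, 2.30, 1.55 and 1.64 in CT-WD and 3.40, 3.83, 4.79 and 2.70 in OE-CTD, then 2.29, 4.15, 3.03 and 2.46 in OE-WD. All OE-CTD values were above all CT-CTD values, of which CT-CTD 2 was the highest. Its log2 fold change was 1.10 (SE 0.28, adjusted p = 0.0479), from 1.72 ± 0.703 FPKM (SD, n = 3) to 3.68 ± 0.878 FPKM (SD, n = 4). The adjusted p was 0.130, 0.222, 0.0834, 0.123, 0.148, 0.0533, 0.0687 and 0.0527 without CT-CTD 1, CT-CTD 3, OE-CTD 1, OE-CTD 2, OE-CTD 3, OE-WD 1, OE-WD 3 and OE-WD 4, within 0.00245 to 0.222 over the alternatives. The count of 4 became 2 without CT-CTD 2, 1 without CT-CTD 3, 1 without OE-CTD 2 and 2 without OE-CTD 3, and 5 with OE-CTD 4 and OE-WD 4 both left out. DESeq2 gave 8 and edgeR with no filter on low counts 9, the 4 among them in both.

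**Figure D2:**
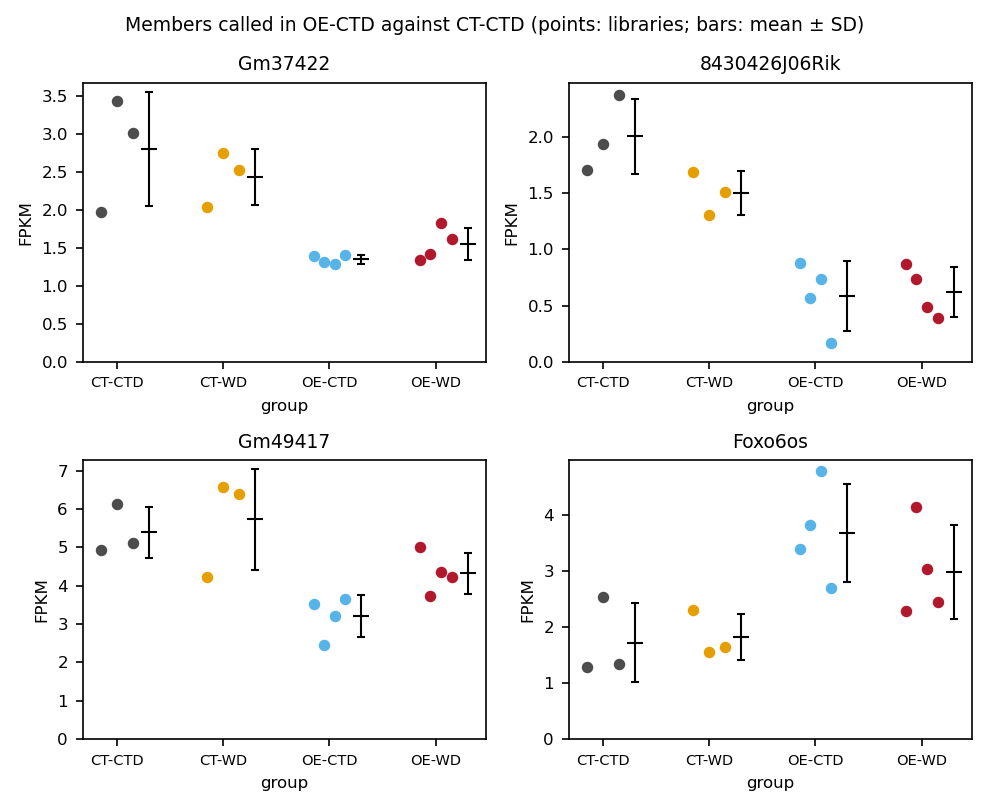
FPKM of the 4 long noncoding RNAs called at the adjusted level in OE-CTD against CT-CTD, 1 point per library, with mean ± SD beside each group. In each panel the OE-CTD points do not overlap the CT-CTD points; for 8430426J06Rik the 8 OE libraries all lie under 0.876 or at it.

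Below a fold of 1.5, 2 further members had an adjusted p under 0.05 and are named for it after their values were seen: D930016D06Rik, which RefSeq lists as the coding gene Thoc2l, at -0.58 (SE 0.12, adjusted p = 0.0238), and Gm11716 at 0.41 (SE 0.10, adjusted p = 0.0398). The rule for naming, which here ranks only members past a fold of 1.5, also takes Gm15943 and Gm11827. Gm15943 is an antisense RNA whose start is 457 bases from that of Fbxo32 and whose exons overlap Klhl38. Its span shares 458 bases with that of Fbxo32 on the other strand, so reads of the 2 genes may be shared. Gm15943 measured 1.20, 1.60 and 0.802 FPKM in CT-CTD, 1.18, 2.76 and 2.17 in CT-WD and 0.404, 0.422, 0.493 and 0.727 in OE-CTD, then 1.23, 0.602, 0.958 and 1.05 in OE-WD. It too is a member through its CT values, as both OE group means were under 1 FPKM. All OE-CTD values were below all CT-CTD values and CT-WD 2 and CT-WD 3 were the highest. It was the only member called at the unadjusted level in all 4 simple comparisons, which share their groups, with -1.25 (SE 0.32, adjusted p = 0.0516) here. Fbxo32, the muscle ubiquitin ligase of atrophy, measured 98.5, 99.2 and 73.1 FPKM in CT-CTD, 83.6, 154 and 151 in CT-WD and 47.2, 44.8, 37.5 and 46.6 in OE-CTD, then 95.4, 47.3, 55.4 and 45.4 in OE-WD. It fell in OE-CTD, with no overlap and -1.04 (SE 0.24, adjusted p = 0.0345), and Klhl38 had -0.59 (SE 0.22, adjusted p = 0.189). Gm11827, a lincRNA, measured 0.701, 0.472, 0.459 and 0.828 FPKM in OE-CTD and 1.85, 0.909 and 2.02 in CT-CTD, without overlap, with -1.39 (SE 0.36, adjusted p = 0.0559). All its OE-CTD values were under 1 FPKM, so that it is a member through values in other groups.

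Some markers of other cells differed between the same groups at the unadjusted level, and none at the adjusted level. Of 8 macrophage genes 7 were higher at the unadjusted level in OE-CTD against CT-CTD and none at the adjusted level. Their summed FPKM was 50.7, 29.8 and 28.5 in CT-CTD, 82.4, 42.9 and 36.7 in CT-WD, 57.1, 65.7, 84.9 and 53.5 in OE-CTD, then 49.0, 78.7, 49.6 and 52.8 in OE-WD; Lyz2 was the most abundant at a mean of 23.3 and none was at 0. Every OE-CTD sum was above every CT-CTD sum. Of 6 tendon genes 4 were higher at the unadjusted level, with sums of 84.8, 37.0 and 58.2 in CT-CTD, 171, 30.3 and 38.6 in CT-WD, 144, 216, 175 and 112 in OE-CTD, then 144, 299.7, 197 and 109.9 in OE-WD, Fmod the most abundant at 63.5 and none at 0. OE sums were above CT-CTD sums, and CT-WD 1 was far above the other CT-WD libraries. Of 9 endothelial genes none was called in OE-CTD against CT-CTD, with a median log2 fold change of 0.31, Cdh5 the most abundant at 24.2 and none at 0. Their sums were 95.7, 94.4 and 92.3 in CT-CTD, 120.0, 107 and 107 in CT-WD, 119.8, 119, 117 and 101 in OE-CTD, then 122, 119, 131 and 119 in OE-WD, and every CT-CTD sum was below every other. CT-CTD 1 and CT-WD 1 had the highest macrophage, tendon, epidermis and adipocyte sums of their groups. The part of these cells in the fold changes of members was not tested.

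On the western diet no member passed the adjusted test for c-Myc in that fit. In OE-WD against CT-WD edgeR called 0 of 297, against 0.563% of all genes. DESeq2 called 8, and edgeR 11 with no filter on low counts, 18 without CT-WD 1, 1 without CT-CTD 1 and 1 without OE-WD 1. The share of 0.563% does not apply to these settings, so their counts are not a result about the members. Without adjustment 31 members were called, against 5.74% of all genes; 6 were higher, against 3.32%, and 25 lower, against 2.42%. The median log2 fold change was -0.14 over members and 0.01 over all genes, and 32.3% of members were above 0, against 50.9% of all genes. That median was -0.10 with OE-CTD 4 and OE-WD 4 both left out, -0.19 without CT-WD 1 and -0.09 without OE-WD 4. It was -0.13 in the 147 lincRNAs, -0.16 in the 134 antisense RNAs and -0.04 in the 16 bidirectional promoter RNAs. Among the 249 tested members whose group means all reached 1 FPKM it was -0.12, and of 21 called unadjusted 5 were higher and 16 lower. Direction thus leaned to lower values in OE-WD over the members, and the list itself was given no test. In the same comparison marker lists had median log2 fold changes of 1.29 (tendon), 0.96 (epidermis and hair), 0.61 (adipocyte) and 0.33 (endothelial). The medians were 0.15 for Schwann cells, 0.12 for macrophages, -0.05, -0.03 and -0.09 for muscle, slow and fast fibre, and -0.09 for blood. None of these genes was called at the adjusted level, and their part in the lean was not tested.

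**Figure D3:**
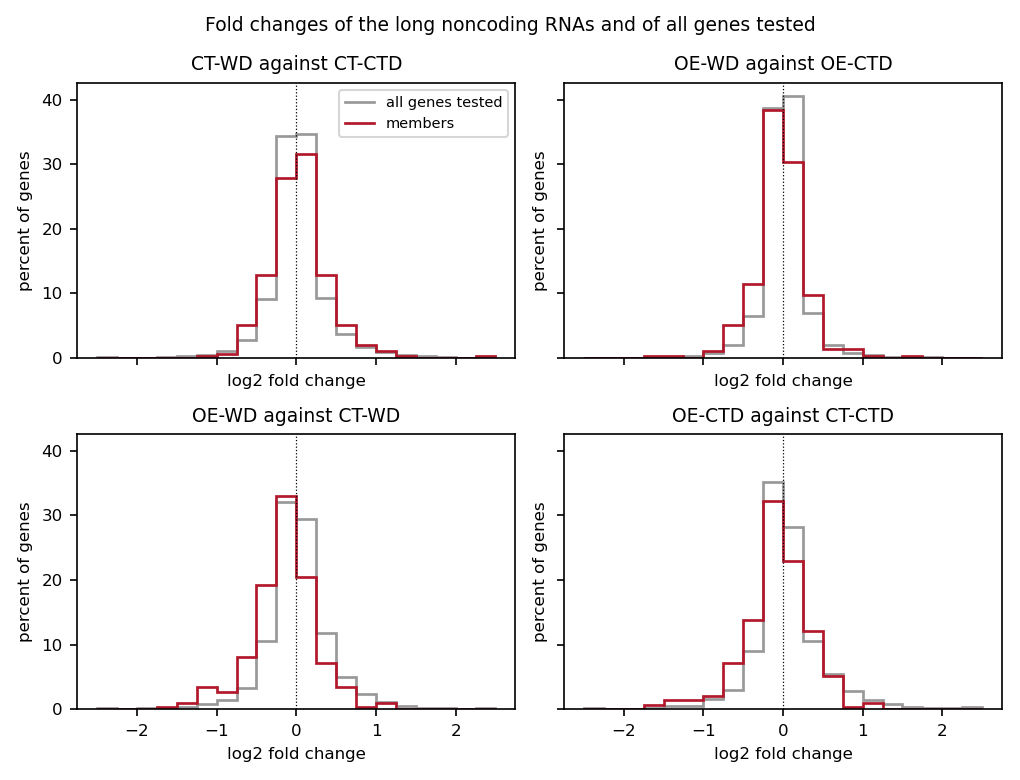
Percent of genes by log2 fold change in bins of 0.25, for the 297 long noncoding RNAs tested (red) and all 15458 genes tested (grey), in the 4 comparisons of 2 groups; values beyond 2.5 are in the outer bins. In OE-WD against CT-WD the red line sits left of the grey one, with medians of -0.14 and 0.01.

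Gm9869, an antisense RNA inside Uaca, had the smallest p and measured 4.61, 4.74 and 6.09 FPKM in CT-CTD, 4.77, 2.65 and 4.23 in CT-WD and 7.23, 6.85, 7.05 and 8.41 in OE-CTD, then 5.49, 6.76, 10.2 and 9.33 in OE-WD. Every OE-WD value was above every CT-WD value, CT-WD 2 being the lowest. Its log2 fold change was 1.01 (SE 0.24, adjusted p = 0.0610), over alternatives with adjusted p from 0.00501 to 0.566, and Uaca had 0.23 (SE 0.10, adjusted p = 0.241). 9530020I12Rik, a lincRNA, measured 4.07, 3.49, 3.61 and 2.87 FPKM in OE-WD and 2.57, 1.81 and 2.26 in CT-WD, again without overlap, with 0.65 (SE 0.16, adjusted p = 0.0663); its fold was under 1.5 without CT-WD 2, at 0.53, and without OE-WD 1, at 0.57. AU020206, a lincRNA, measured 3.59, 3.60, 3.49 and 2.41 FPKM in OE-WD and 2.23, 1.78 and 1.22 in CT-WD. OE-WD was above CT-WD throughout, with 0.90 (SE 0.24, adjusted p = 0.0907).

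Lower in OE-WD were Gm37422, Gm32219 and Gm14097. Gm37422 had -0.65 (SE 0.17, adjusted p = 0.0820), and -0.56 without CT-WD 2, which took its fold under 1.5. Gm32219, a lincRNA, measured 3.61, 3.52 and 4.98 FPKM in CT-CTD, 5.11, 5.19 and 14.9 in CT-WD and 3.80, 4.79, 4.56 and 3.61 in OE-CTD, then 4.03, 3.24, 4.02 and 4.10 in OE-WD. A single library, CT-WD 3 at 14.9, was far above every other, the next being CT-WD 2 at 5.19. The log2 fold change of -1.13 (SE 0.29, adjusted p = 0.0831) was -0.43 without CT-WD 3 and no longer called. Gm14097, which RefSeq lists as a pseudogene and which lies across Shld1, measured 2.44, 1.304, 1.77 and 1.33 FPKM in OE-WD and 2.91, 3.498 and 5.19 in CT-WD. The groups did not overlap, and the log2 fold change was -1.17 (SE 0.31, adjusted p = 0.0884).

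For the western diet in control mice, CT-WD against CT-CTD, edgeR called 0 of 297 members at the adjusted level, against 0% of all genes; DESeq2 called 1 and edgeR with no filter on low counts 2. At the unadjusted level 13 were called, against 3.05% of all genes, with 8 higher, against 2.17%, and 5 lower, against 0.880%. Without CT-WD 1 the count was 26. The median log2 fold change was 0.02 over members and 0.01 over all genes. The member median was 0.04 without CT-CTD 1, 0.05 without CT-CTD 2, -0.03 without CT-CTD 3, -0.01 without CT-WD 2 and -0.01 without CT-WD 3, so that its sign hangs on single libraries. Gm10076, the most abundant member, had the smallest p. It measured 29.4, 72.8 and 22.7 FPKM in CT-CTD, 207, 231 and 217 in CT-WD and 116, 76.4, 70.3 and 89.6 in OE-CTD, then 40.4, 186, 189 and 138 in OE-WD. CT-WD lay far above CT-CTD, with no overlap, from 41.6 ± 27.2 FPKM (SD, n = 3) to 218 ± 11.9 FPKM (SD, n = 3), and OE-WD 1 was far below the other OE-WD libraries. The log2 fold change was 2.40 (SE 0.46, adjusted p = 0.277). Without OE-WD 1, which is in neither group but enters the estimate of the spread, the adjusted p was 0.0219 and the gene was called, and over the alternatives it ran from 8.75e-06 to 0.704.

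RefSeq lists Gm10076 as a pseudogene, and it is a near copy of Rpl41, which encodes a ribosomal protein. Of 383 aligned transcript bases 381 are identical, and the 2 mismatches are T127C and A234G, positions counted from 1 at the 5′ end of Gm10076 and its base given first. Rpl41 measured 166, 134 and 143 FPKM in CT-CTD, 47.1, 62.0 and 68.6 in CT-WD and 113, 119, 122 and 123 in OE-CTD, then 134, 41.9, 41.4 and 66.2 in OE-WD. It ran opposite to Gm10076: low in CT-WD and in 3 OE-WD libraries, high in CT-CTD and in OE-WD 1. Its log2 fold change in CT-WD against CT-CTD was -1.32 (SE 0.32, adjusted p = 0.394), and -1.32 without OE-WD 1, where its adjusted p was 0.0196, within 4.45e-04 to 0.967 over the alternatives. The summed FPKM of both genes was 189 ± 21.3 in CT-CTD (SD, n = 3), 278 ± 20.3 in CT-WD (SD, n = 3), 207 ± 16.8 in OE-CTD (SD, n = 4) and 209 ± 26.2 in OE-WD (SD, n = 4). The sum was not constant: it was 255 to 293 in CT-WD and at most 231 in any other library. Of that sum Gm10076 took at most 35.2% in any CT-CTD library, at least 75.9% in any CT-WD library and 36.5% to 50.7% in the OE-CTD libraries. OE-WD split into 23.2% for OE-WD 1 and 81.6%, 82.1% and 67.5% for the others. With 2 differing bases the counting cannot surely assign a read to one of them.

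**Figure D4:**
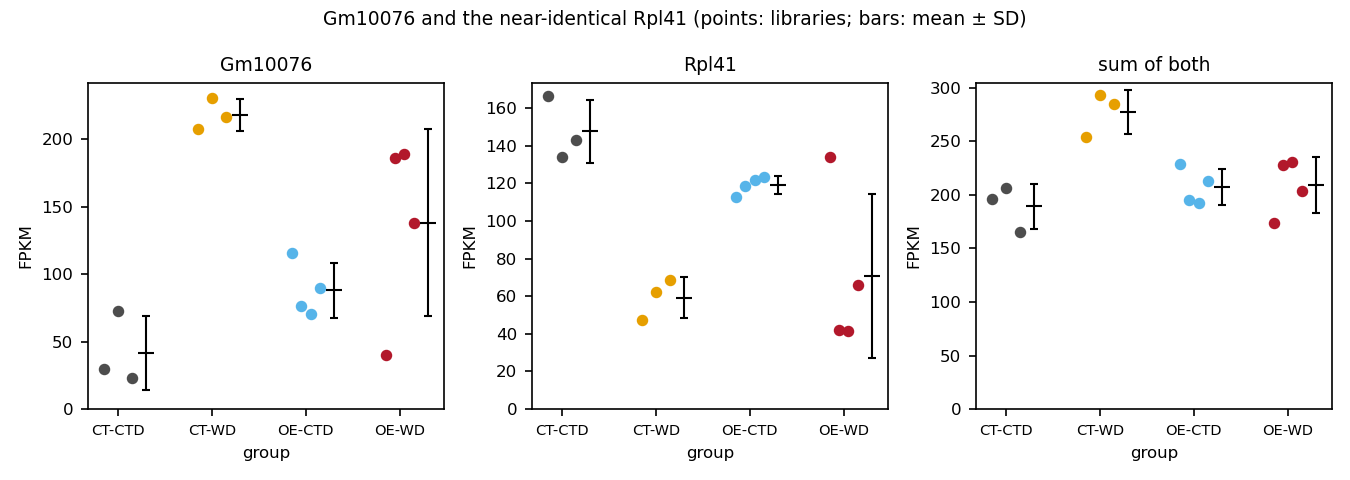
FPKM of Gm10076, of Rpl41 and of their sum, 1 point per library with mean ± SD beside each group. The 2 genes run opposite across the libraries, OE-WD 1 included. Their sum ranges from 166 to 293 FPKM, with every CT-WD sum above that of every other library.

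Other members named in CT-WD against CT-CTD had adjusted p of 0.507 or more. Gm32219 was at 1.05 on the log2 scale and at 0.35 without CT-WD 3. Gm11266, an antisense RNA inside the transcription factor gene Nfib, measured 3.78, 3.91 and 3.06 FPKM in CT-CTD and 2.37, 2.04 and 0.844 in CT-WD. CT-WD was the lower throughout, with -1.02 (SE 0.35, adjusted p = 0.561). AU020206 measured 3.64, 2.25 and 2.84 FPKM in CT-CTD and 2.23, 1.78 and 1.22 in CT-WD, with -0.73; it was -0.55 without CT-CTD 1 and -0.53 without CT-WD 3, neither called. Gm43136, an antisense RNA within Chfr, measured 1.76, 2.68 and 1.97 FPKM in CT-CTD and 2.89, 3.25 and 4.75 in CT-WD, without overlap, with 0.76; it was 0.63 without CT-CTD 1 and 0.53 without CT-WD 3, neither called. Gm12224, across the acyl-CoA synthetase gene Acsl6, had 0.64, and 0.54 without CT-CTD 3 and 0.42 without CT-WD 3, where it was not called.

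For the western diet with c-Myc overexpressed, OE-WD against OE-CTD, edgeR called 0 of 297 members at the adjusted level, against 0.00647% of all genes, and DESeq2 also called 0. There were 12 calls at the unadjusted level, against 1.37% of all genes: 3 higher, against 0.686%, and 9 lower, against 0.686%. Among the 249 tested members whose group means all reached 1 FPKM, 4 were called, 0 higher and 4 lower. The 48 members with a group mean under 1 FPKM held the other 8 calls, 3 higher and 5 lower. The median log2 fold change was -0.03 over members and 0.00 over all genes. Over members it was -0.02 without OE-CTD 1, -0.02 without OE-CTD 2, -0.06 without OE-CTD 4 and -0.01 without OE-WD 4. The lowest adjusted p of any member was 0.9999. 2310016D23Rik, a lincRNA, measured 3.54, 4.39 and 3.11 FPKM in CT-CTD, 2.82, 3.14 and 4.65 in CT-WD and 7.73, 5.08, 10.6 and 5.26 in OE-CTD, then 4.59, 3.16, 3.10 and 3.57 in OE-WD. OE-CTD was above every other group, with OE-CTD 3 the highest, and the log2 fold change was -0.996 (SE 0.27). Gm34342, a lincRNA of 335 bases, measured 1.03, 1.24 and 0.902 FPKM in CT-CTD, 1.05, 0.317 and 1.60 in CT-WD and 0.498, 0.428, 0.669 and 0.676 in OE-CTD, then 1.77, 1.26, 0.968 and 2.53 in OE-WD. OE-WD was above OE-CTD in all libraries, at 1.51 (SE 0.48), while the CT groups overlapped. Gm34342 is a member through its OE-WD values, and every OE-CTD value was under 1 FPKM. Gm15943 had 0.92 (SE 0.31) with overlapping groups, OE-WD 2 lying among the OE-CTD values. Gm10076 had 0.65, and 0.95 without OE-WD 1. Rpl41 had -0.75, and -1.27 without OE-WD 1, where its adjusted p was 0.00917, within 0.00917 to 1 over the alternatives.

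Gm4285, whose start is 129 bases from that of Tpt1, measured 2.03, 1.39, 1.49 and 1.38 FPKM in OE-CTD, then 1.03, 0.934, 1.13 and 0.842 in OE-WD, without overlap. Its log2 fold change was -0.68, and -0.53 without OE-CTD 1, no longer called. AC166164.1, across from Apobec2, measured 10.1, 9.13, 9.23 and 11.8 FPKM in OE-CTD, then 4.32, 7.40, 7.28 and 7.59 in OE-WD. OE-WD was lower throughout and OE-WD 1 the lowest; the log2 fold change was -0.60, and -0.52 without OE-CTD 4, -0.44 without OE-WD 1 and -0.58 without OE-CTD 4 and OE-WD 4, none of them called. Gm44623 had -1.42 with overlapping groups; it was -1.09 without OE-CTD 4, -1.22 without OE-WD 3, -1.20 without OE-WD 4 and -0.87 without OE-CTD 4 and OE-WD 4, none of them called. Gm4665, Gm36495 and 4930527E20Rik, which with Gm28653 and Gm44623 had the largest spread within groups, ranged from 0.139 to 2.59, from 0.670 to 7.56 and from 0.237 to 2.21 FPKM.

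Whether diet acted differently with c-Myc was tested as the interaction. edgeR called 0 of 297 members at the adjusted level, against 0% of all genes; DESeq2 called 1, as did edgeR with no filter on low counts. By unadjusted p alone 20 members were called, against 5.92% of all genes, 4 with a higher diet effect in OE, against 2.57%, and 16 with a lower one, against 3.34%. The count was 12 without CT-CTD 2, 12 without CT-CTD 3, 12 without CT-WD 3, 10 without OE-CTD 1, 12 without OE-WD 2 and 13 without OE-WD 4. The median was -0.06 over members and -0.01 over all genes. Over members it was -0.01 without CT-WD 3, -0.02 without CT-CTD 3, -0.03 without OE-CTD 2, and -0.04 without CT-WD 2, OE-CTD 1 or OE-WD 4. Gm11716, an antisense RNA within Pitpnc1, a phosphatidylinositol transfer protein gene, had the smallest p. It measured 33.9, 28.5 and 34.9 FPKM in CT-CTD, 38.1, 36.5 and 41.5 in CT-WD and 46.6, 44.3, 40.4 and 41.5 in OE-CTD, then 31.5, 29.9, 32.6 and 32.5 in OE-WD. CT-WD lay above CT-CTD and OE-WD below OE-CTD, in neither case with overlap, and the interaction was -0.71 (SE 0.14, adjusted p = 0.675); over the alternatives the adjusted p ran from 0.0234 to 0.999, the lowest by DESeq2. It is also among the 5 members with the smallest spread within groups.

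Of the others named, all with a lower diet effect in OE, 2610306M01Rik starts 77 bases from Aak1 and measured 3.09, 3.49 and 4.55 FPKM in CT-CTD, 4.84, 6.36 and 4.68 in CT-WD and 4.52, 4.44, 5.38 and 5.002 in OE-CTD, then 3.87, 4.12, 2.93 and 2.96 in OE-WD. As with Gm11716, CT-WD was above CT-CTD and OE-WD below OE-CTD without overlap, and the interaction was -0.98 (SE 0.27, adjusted p = 0.825). Gm43136 had -1.25 (SE 0.36, adjusted p = 0.825), with OE-WD at 2.13, 1.99, 1.82 and 1.97 below OE-CTD at 2.42, 3.49, 2.26 and 2.85 FPKM. Gm10076 had -1.75 (SE 0.59, adjusted p = 0.825), and -1.44 without OE-WD 1. 2310075C17Rik, a lincRNA of 326 bases inside the span of Arpp21 on the other strand, measured 1.45, 2.12 and 1.32 FPKM in CT-CTD, 2.997, 3.74 and 1.80 in CT-WD and 1.92, 2.20, 2.20 and 2.95 in OE-CTD, then 1.56, 1.76, 1.28 and 0.822 in OE-WD. OE-WD was below OE-CTD throughout while the CT groups overlapped, and the interaction was -1.55 (SE 0.53, adjusted p = 0.825). Gm32219 had -1.18, and -0.49 without CT-WD 3, where it was not called.

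Over the 4 simple comparisons 244 members were called in none at the unadjusted level, 30 in 1, 23 in 2 and 1 in all 4. The same count was not made over all genes, so it does not set the members apart from them. The 244 include Gm38079, which was not tested. Marker lists of the tissue gave no call at the adjusted level by edgeR in any comparison. Of 12 muscle fibre genes 1 was lower at the unadjusted level, in the interaction; of 8 slow fibre genes 2 were lower there; of 9 fast fibre genes 1 was lower in OE-CTD against CT-CTD. Of 9 endothelial genes 1 was higher in CT-WD against CT-CTD and 1 lower in the interaction, and of 8 macrophage genes 2 were higher in CT-WD against CT-CTD and 1 lower in the interaction. Of 7 adipocyte genes 1 was higher in OE-WD against CT-WD, and 1 higher and 1 lower in OE-CTD against CT-CTD; of 6 tendon genes 1 was higher in OE-WD against CT-WD. None of 7 Schwann cell genes and none of 4 tested of 5 blood genes was called. Of 8 genes of epidermis and hair 2 were higher in CT-WD against CT-CTD, 3 in OE-WD against OE-CTD, 2 in OE-WD against CT-WD and 1 in OE-CTD against CT-CTD. Their summed FPKM was 20.3, 2.44 and 5.89 in CT-CTD, 47.2, 4.53 and 5.50 in CT-WD, 11.4, 19.1, 19.4 and 1.29 in OE-CTD, then 7.56, 42.4, 66.0 and 31.2 in OE-WD, with Krt5 the most abundant at a mean of 5.03 and none at 0 over all libraries, though Flg2 was under 0.1. OE-WD 3 and CT-WD 1 were the highest and OE-CTD 4 the lowest. The part of these cells in the results above was not tested.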

How the data were processed

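The authors deposited a table of counts (reads per gene) and a table of FPKM for 14 libraries; per the submitters' processing notes reads were aligned to mm10 with HISAT2 2.0.5 and counted with featureCounts 1.5.0-p3. FPKM chose and described the members, and the deposited counts were tested in R 4.3.3 with edgeR 4.0.16 (TMM, filterByExpr, 1 mean per group, quasi-likelihood test, Benjamini-Hochberg over 15458 genes; tested on simulated data). Alternatives were DESeq2 1.42.0, no filter, each library left out, a replicate block, TMM counts per kb, and OE-CTD 4 with OE-WD 4 left out, chosen after seeing the data. The block pairs equal replicate numbers; in CT-WD against CT-CTD, residuals of equal numbers correlated at 0.385, 0.123 and 0.203 over genes. Members were named when among the 15 most abundant, called at the adjusted level, or among the 5 largest or smallest spreads. Also named were those with the 6 smallest unadjusted p among members called in a comparison, hence past the fold of 1.5 outside the interaction. Members on a role list or at the threshold were named, as were some that hold a small RNA. Lists covered paraspeckles, snoRNPs, decay, the exosome, RNase P, and cell markers. Members and lists were chosen with earlier results of these data known. Promoters and microRNAs are from RefSeq GRCm38.p6, transcripts from GENCODE M21.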

Additional observations from a re-analysis of the deposited data

Results flagged for a closer look

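Among 116 groups of 4 libraries, taken over the named long noncoding RNAs and the library measures, 13 (11.2%) held 1 library far from the other 3. Chance would flag about 1 in 20 independent groups. These groups share their libraries, and some members were named for a large spread, so the share flagged is not a test against chance. Groups of 3 were not tested.

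OE-CTD 4 and OE-WD 4 recur. 1700020I14Rik stood at 77.7 FPKM in OE-CTD 4 and 82.4 FPKM in OE-WD 4, and Malat1 at 57.4 FPKM in OE-CTD 4 and 56.2 FPKM in OE-WD 4, all far above their group. The share of Malat1 in the counts on long noncoding RNAs was 8.24% in OE-WD 4, also far above its group. 1810058I24Rik was at 23.1 FPKM in OE-CTD 4 and AU020206 at 2.41 FPKM in OE-WD 4. These libraries also hold the most mitochondrial RNA, and the total behind their FPKM is the lowest share of summed counts, 79.9% and 80.8%. Whether this has one cause was not tested.

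In OE-WD 2, Gm44386 was at 43.5 FPKM, Gm32219 at 3.24 FPKM and Gm12224 at 3.44 FPKM. In OE-WD 1, AC166164.1 was at 4.32 FPKM and Gm11827 at 0.465 FPKM. In OE-CTD 1, Gm4285 was at 2.03 FPKM.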

How the results depend on the processing

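Counts of long noncoding RNAs called by edgeR are given with what each alternative made of them. The cause of a move was not tested.

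CT-WD against CT-CTD, adjusted level: 0 became 2 with no filter on low counts and 1 with DESeq2, and 0 to 1 with 1 library left out (1 without OE-WD 1). At the unadjusted level 13 became 10 to 26 with 1 library left out, the highest without CT-WD 1.

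OE-WD against OE-CTD: 0 at the adjusted level was 0 in every setting. Unadjusted, 12 became 8 to 13 with 1 library left out.

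OE-WD against CT-WD, adjusted level: 0 became 11 with no filter, 8 with DESeq2, and 0 to 18 with 1 library left out (18 without CT-WD 1). At the unadjusted level 31 became 19 with the replicate block, which pairs libraries by number, and 22 to 43 with 1 library left out.

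OE-CTD against CT-CTD, adjusted level: 4 became 9 with no filter, 7 with the replicate block, 8 with DESeq2, and 1 to 6 with 1 library left out (1 without CT-CTD 3 or OE-CTD 2). Unadjusted, 24 became 18 to 27 with 1 library left out.

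Interaction, adjusted level: 0 became 1 with no filter, 1 with DESeq2 and 0 throughout with 1 library left out. By unadjusted p 20 became 10 to 23 with 1 library left out.

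Residuals of libraries with equal replicate numbers correlated over genes at 0.0711, 0.138, 0.142 and 0.338 in OE-WD against OE-CTD, at -0.23, -0.158 and -0.0647 in OE-WD against CT-WD and at 0.0465, -0.113 and -0.122 in OE-CTD against CT-CTD. Each library correlated best with its own number in OE-WD against OE-CTD but not throughout in the genotype comparisons. The replicate block moved no other count by more than 1.5 times and lost none of the 23 calls of named members it was run for; it gave no value for Gm34342 in OE-WD against OE-CTD and was not run for the interaction. The member median log2 fold change of OE-CTD against CT-CTD, -0.07, was -0.02 under the block, with 48.5% of members above 0 against 41.4%.

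The median level of the members is 1.949 as TMM-scaled CPM per kb, where the FPKM median is 2.13.

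OE-CTD 4 and OE-WD 4 were left out together as an alternative chosen after seeing the data; it gave 5 calls at the adjusted level in OE-CTD against CT-CTD and 0 in the other comparisons. Over 30 fold changes of named members and 533 alternatives, 496 kept the call, 37 lost it and 0 reversed.

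With 3 or 4 libraries per group, 1 library decides many calls, and leaving out CT-WD 1 moved OE-WD against CT-WD the most. Nothing here tests whether libraries are separate animals, what the numbers in their names stand for, which muscle each came from or which strand was counted. Only Gm37422 in OE-CTD against CT-CTD was called at the adjusted level in all 18 alternatives.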
